A study of Bos taurus with 24 samples.

Results

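Interferon regulatory factors (IRF) are transcription factors that switch on interferon genes and the genes that interferons induce. The 8 described here, IRF1, IRF2, IRF3, IRF4, IRF5, IRF7, IRF8 and IRF9, were picked out of the tables by gene symbol and make up 8 of the 27371 distinct gene symbols in the deposited tables. Each symbol had 1 row among the 59846 rows of a table. Their RNA was measured by RNA-Seq in dermal fibroblast cultures from 4 Angus (beef) and 4 Holstein (dairy) heifers of like age, each culture grown from a skin biopsy of 1 animal. Every culture was exposed to 100 ng/ml of lipopolysaccharide (LPS), from the outer membrane of Gram-negative bacteria, and RNA was taken at 0 h, which served as the control, and at 2 h and 8 h, from pooled duplicate wells. This gave 24 samples in 6 groups of 4 animals, and each animal contributed 1 sample at each hour. No culture without LPS was followed to 2 h or 8 h, so exposure and time in culture cannot be told apart.

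As background, LPS is sensed by TLR4, which signals through the adaptors MyD88 and TRIF (TICAM1). The TRIF route activates the kinase TBK1 and, through it, the constitutively made IRF3, which turns on interferon beta. Interferon then acts through its receptor and a complex that holds IRF9 to raise a wide set of interferon-stimulated genes, IRF7 among them, and IRF7 in turn amplifies interferon production. IRF1 is an activator that is itself induced by inflammatory signals and interferons, IRF2 binds the same DNA element and mostly opposes it, and IRF5 acts downstream of MyD88 on inflammatory cytokine genes. IRF4 and IRF8 are best known from lymphoid and myeloid cells.

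On the UMD v3.1 bovine genome, IRF1 covered chromosome 7 from 23235653 to 23243672 on the plus strand and IRF2 chromosome 27 from 13909933 to 13992047 on the minus strand. IRF3 covered chromosome 18 from 56517725 to 56523302 (minus), and IRF8 the same chromosome from 11883376 to 11905048 (plus). IRF4 covered chromosome 23 from 52050985 to 52063706 (minus), and IRF5 chromosome 4 from 93706187 to 93717881 (plus). IRF7 covered chromosome 29 from 50903719 to 50906821 (plus), and IRF9 chromosome 10 from 20820964 to 20825564 (minus). Each row spans a whole gene, introns included, and counts were not divided by length, so levels in CPM (counts scaled to library size) are compared here between samples and not between genes. Of the 8 genes, only IRF1 shared bases with another row: LOC100848038, on the opposite strand, covered 5932 bases of it, which is 74% of the IRF1 span.

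The overlap touches how IRF1 was counted. IRF1 had 167 to 194 covered bases for each counted read, with a median of 178.6, above 98.5% of 12890 expressed gene rows, whose median was 77.2. The LOC100848038 row held 2.07 to 2.48 counts for each IRF1 count. Both rows had the same highest coverage in 24 of 24 samples, and the covered bases of the LOC100848038 row were 0.872 to 0.958 times those of IRF1. The count of IRF1 was therefore low for its coverage, and without strand its reads cannot be told apart from those of LOC100848038. Coverage gave the same changes as counts (a log2 ratio of means at 2 h against 0 h of 4.51 from both in Holstein, and of 2.53 and 2.51 in Angus), but it is as unstranded as the counts. The share of LOC100848038 in the changes of IRF1 was not tested.

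Libraries held 51014538 to 104406293 counts. In 4 of them (Angus animal 4 and Holstein animals 2 and 4 at 0 h, Angus animal 3 at 2 h) COL1A1 had 66.2 to 67.1 covered bases per count against 111.8 to 119 elsewhere. Calls of the IRF genes that are lost or gained without these libraries are given below with both values. For the other genes and rows named below, values without these libraries are not given. The 9 fibroblast markers were at 1 CPM or more in every sample, with a summed level of 37830 to 124600 CPM. The 9 leukocyte markers summed to 2.18 to 5.80 CPM, and only CD68 reached 1 CPM throughout. At 0 h that sum was 3.36 to 5.26 (Angus) and 2.18 to 3.52 CPM (Holstein), at 2 h 4.93 to 5.26 and 4.67 to 5.79, and at 8 h 4.74 to 5.43 and 3.28 to 5.80. The 4 endothelial markers summed to 0.959 to 3.50 CPM and the 4 epithelial markers to 0.0165 to 13.2 CPM. Their part in the results below was not tested.

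Tests used edgeR's likelihood-ratio test over all rows, with the false discovery rate (FDR) of Benjamini and Hochberg. A gene is called past the threshold when its FDR was under 0.05, its fold change at least 2 and its mean level above 1 CPM. Both LPS hours were compared with the same 0 h samples. In bulk RNA, fewer cells that express a gene and less RNA per cell cannot be told apart.

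IRF4 and IRF8 were not detectable as expressed genes at this depth. IRF4 had 1 count in the 24 libraries together and 0 counts in 23 of them. IRF8 had 25 counts in all, 0 to 3 per library, with 9 libraries at 0. A count of 0 allows a level of up to 0.0287 to 0.0588 CPM, a floor of 3 counts that covers counting error only. The other 6 genes passed the filter on low values and were tested in each of the 12 comparisons.

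With both breeds in 1 fit, IRF1 and IRF5 rose past the threshold at 2 h, which made 2 of the 6 tested genes where 2.93% of 20157 rows passed and 2.12% passed upward. At 8 h only IRF1 remained above its 0 h level by that criterion, 1 of 6 where 1.57% of 20368 rows passed, 1.16% upward, and 21.4% had an FDR under 0.05. IRF2, IRF3 and IRF9 were lower at 2 h by less than 2-fold but with an FDR under 0.05, a criterion that 29.3% of rows met, 15.3% downward. From 2 h to 8 h, IRF1 and IRF5 fell and IRF9 rose past the threshold, 3 of 6 genes where 2.89% of 20291 rows passed, 1.21% upward and 1.68% downward, and 32.6% had an FDR under 0.05. Without the 4 libraries with other counting, the 2 h changes were 2.98 for IRF1 (FDR = 3.84e-07), 1.08 for IRF5 (FDR = 0.00541), -0.75 for IRF2 (FDR = 1.11e-09), -0.66 for IRF9 (FDR = 0.00126) and -0.13 for IRF3 (FDR = 0.259). The median log2 fold change of the 6 genes was 0.18 at 2 h and 0.29 at 8 h, and over all rows tested it was -0.0044 and -0.0064.

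**Figure D1:**
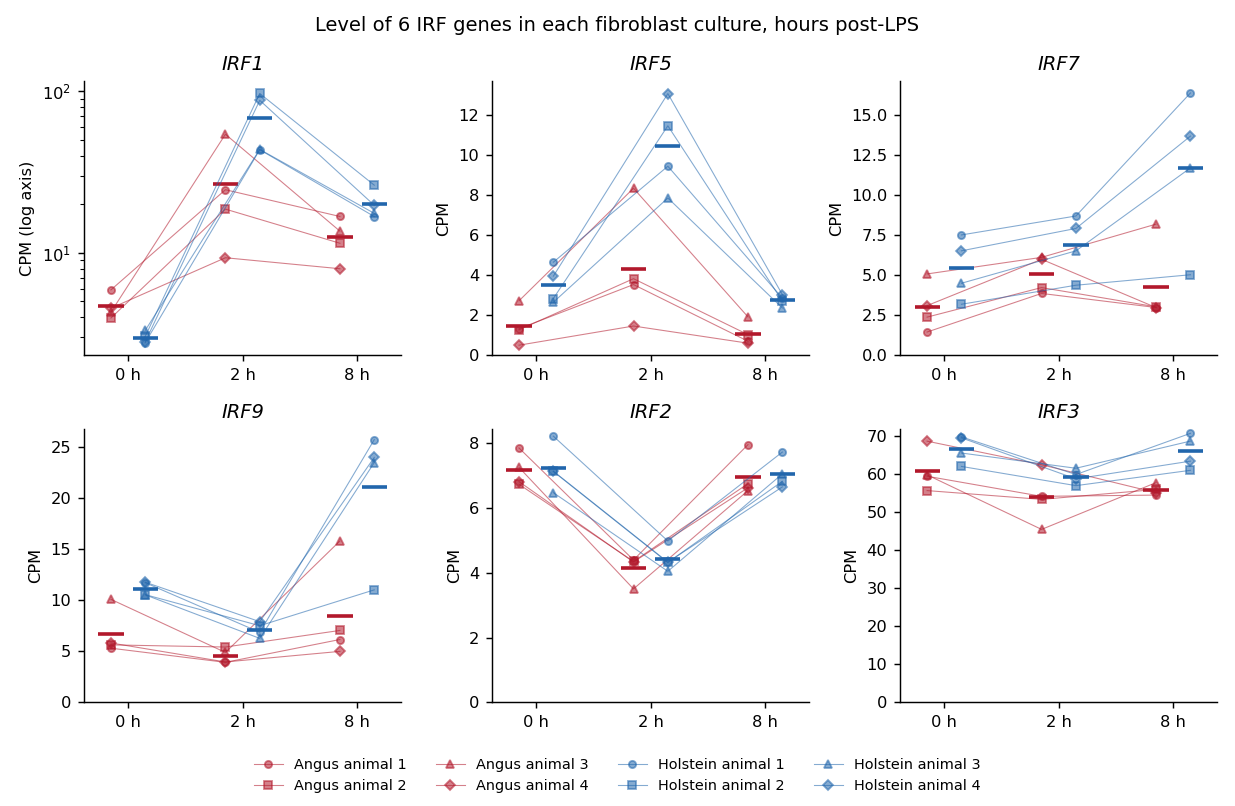
Level of the 6 detectable IRF genes (CPM; log axis for IRF1 only) in each culture by hour of LPS exposure (0, 2, 8). Thin lines join the samples of 1 animal and thick bars are group means (n = 4). IRF1 and IRF5 peak at 2 h in all 8 animals and IRF2 dips at 2 h. The highest IRF7 and IRF9 levels of all samples are those of Holstein animals 1, 3 and 4 at 8 h.

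IRF1 was the member with the largest change. In Angus fibroblasts its level at 0 h was 5.9, 3.95, 4.30 and 4.54 CPM in animals 1 to 4, and at 2 h it was 24.6, 18.7, 54.2 and 9.33 CPM. In Holstein fibroblasts it was 2.79, 3.04, 3.31 and 2.82 CPM at 0 h, and 43.5, 97.0, 43.7 and 88.0 CPM at 2 h. At 8 h it was 16.8, 11.5, 13.6 and 7.98 CPM in Angus and 16.8, 26.2, 17.6 and 19.7 CPM in Holstein. Every 2 h and 8 h sample lay above every 0 h sample of its own breed. The order of group means ran from Holstein at 0 h (2.99 ± 0.24 CPM, SD, n = 4) through Angus at 0 h (4.67 ± 0.85), Angus at 8 h (12.5 ± 3.71), Holstein at 8 h (20.1 ± 4.29) and Angus at 2 h (26.7 ± 19.4) to Holstein at 2 h (68.1 ± 28.5). Neighbouring groups in that order overlapped in range from Angus at 8 h upward and were separate below it.

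The IRF1 log2 fold change with both breeds was 3.51 ± 0.36 (SE) at 2 h (FDR = 1.34e-15, 11.4-fold) and 2.07 ± 0.22 at 8 h (FDR = 8.11e-17, 4.20-fold). From 2 h to 8 h it fell by 1.43 ± 0.30 on the log2 scale (FDR = 3.29e-05). Within Holstein the 2 h change was 4.50 ± 0.28 (FDR = 4.85e-43) and the 8 h change 2.75 ± 0.17 (FDR = 1.03e-48). Within Angus these were 2.51 ± 0.45 (FDR = 5.61e-06) and 1.41 ± 0.25 (FDR = 5.49e-06). IRF1 stayed past the threshold in both breeds, at both hours, without any single animal and under each alternative test. The shares of rows past the threshold were 3.14% and 2.51% in Holstein at 2 h and 8 h (2.41% and 1.91% upward), and 2.97% and 0.863% in Angus (1.95% and 0.592% upward). An FDR under 0.05 was met by 17.2% and 14.7% of rows in Holstein and by 13.8% and 3.9% in Angus. The overlapping LOC100848038 row gave 4.48 ± 0.27 in Holstein and 2.55 ± 0.45 in Angus at 2 h, but it shares reads with IRF1 and is not a separate measurement.

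IRF5 rose at 2 h, and by 8 h it lay below its starting level in 7 of 8 animals, Angus animal 4 being the exception. In Angus it was 1.31, 1.26, 2.71 and 0.491 CPM at 0 h, 3.52, 3.82, 8.34 and 1.45 CPM at 2 h, and 0.689, 1.02, 1.90 and 0.591 CPM at 8 h. In Holstein it was 4.64, 2.83, 2.64 and 3.94 CPM at 0 h, 9.44, 11.5, 7.85 and 13.1 CPM at 2 h, and 2.85, 2.70, 2.35 and 3.02 CPM at 8 h. Each of the 8 animals was higher at 2 h than at 0 h and lower at 8 h than at 2 h. The 2 h change with both breeds was 1.57 ± 0.32 (FDR = 2.26e-05, 2.97-fold), and from 2 h to 8 h IRF5 fell by 1.97 ± 0.29 on the log2 scale (FDR = 1.67e-09). The change against 0 h at 8 h was -0.41 ± 0.29 (FDR = 0.345), and with the animal as a block it was -0.37 (FDR = 0.00683).

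The estimated 2 h response of IRF5 was alike in the breeds but its error was wide. It was 1.57 ± 0.24 in Holstein (FDR = 2.91e-09) and 1.57 ± 0.59 in Angus, where the FDR of 0.0609 missed the threshold. The difference between these responses was 0.01 with a 95% interval of -1.30 to 1.33. Among Angus, animal 3 was the highest and animal 4 the lowest at each of the 3 hours. With the animal as a block, the Angus change was 1.55 (FDR = 4.80e-28) and passed. It also passed without Angus animal 3 (FDR = 0.0286) and without Angus animal 4 (FDR = 0.0148), and was 0.72 (FDR = 0.373) without the libraries with other counting.

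IRF7, the interferon-inducible amplifier, moved by less. In Angus it was 1.44, 2.37, 5.07 and 3.09 CPM at 0 h, 3.85, 4.22, 6.11 and 5.99 CPM at 2 h, and 2.97, 3.02, 8.19 and 2.97 CPM at 8 h. In Holstein it was 7.51, 3.18, 4.49 and 6.52 CPM at 0 h, 8.70, 4.37, 6.52 and 7.92 CPM at 2 h, and 16.4, 5.02, 11.7 and 13.7 CPM at 8 h. It was higher at 2 h in 8 of 8 animals, as were 17.8% of all rows, and higher at 8 h in 7 of 8, Angus animal 4 being the exception. With both breeds the change was 0.54 ± 0.25 at 2 h (FDR = 0.0874) and 0.81 ± 0.32 at 8 h (FDR = 0.052), neither past the threshold. With the animal as a block these were 0.60 (FDR = 2.12e-05) and 0.79 (FDR = 1.14e-06), still under 2-fold.

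In Holstein at 8 h, IRF7 passed with a change of 1.11 ± 0.37 (FDR = 0.0267), and with the block 1.07 (FDR = 1.30e-14). The call was lost without Holstein animal 1 (FDR = 0.0871), animal 3 (FDR = 0.186) or animal 4 (FDR = 0.14), under the quasi-likelihood F test (FDR = 0.0814), and without the libraries with other counting (FDR = 0.246), which leaves 2 Holstein animals at 0 h. In Angus the 2 h change was 0.75 ± 0.37 (FDR = 0.199), and it passed only without Angus animal 3, at 1.03 (FDR = 0.0286).

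IRF9, the DNA-binding subunit of the interferon-activated complex, first fell and then rose. In Angus it was 5.32, 5.65, 10.1 and 5.83 CPM at 0 h, 3.94, 5.44, 4.91 and 3.97 CPM at 2 h, and 6.17, 7.06, 15.8 and 5.01 CPM at 8 h. In Holstein it was 11.7, 10.6, 10.6 and 11.8 CPM at 0 h, 6.88, 7.52, 6.28 and 7.92 CPM at 2 h, and 25.8, 11.0, 23.5 and 24.02 CPM at 8 h. It was lower at 2 h than at 0 h in 8 of 8 animals, as were 18.3% of all rows, and higher at 8 h than at 2 h in 8 of 8. The change at 2 h was -0.61 ± 0.14 (FDR = 6.79e-05, 1.52-fold lower). From 2 h to 8 h IRF9 rose by 1.24 ± 0.24 (FDR = 3.25e-06, 2.36-fold), a call kept without any single animal.

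Against 0 h, the 8 h change of IRF9 was 0.63 ± 0.24 (FDR = 0.0511), and 0.54 (FDR = 0.00238) with the animal as a block. It was 0.92 ± 0.24 in Holstein (FDR = 0.00191, 1.89-fold) and 0.34 ± 0.39 in Angus (FDR = 0.814). Holstein animal 2 changed by only 0.06 on the log2 scale of CPM + 0.5 while the other Holstein animals changed by 1.10, 1.12 and 1.00. Without that animal the Holstein change was 1.10 (FDR = 2.01e-16) and passed the threshold. Without the libraries with other counting it was 0.93 (FDR = 0.0716).

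IRF2, the counterpart of IRF1 on shared DNA elements, dipped at 2 h and returned. It was 6.73 to 7.85 (Angus) and 6.48 to 8.22 CPM (Holstein) at 0 h, 3.50 to 4.40 and 4.05 to 4.98 CPM at 2 h, and 6.54 to 7.96 and 6.65 to 7.73 CPM at 8 h. The 2 h range lay wholly below the other hours in both breeds. The change was -0.75 ± 0.09 at 2 h (FDR = 3.22e-15, 1.69-fold lower) and 0.72 ± 0.09 from 2 h to 8 h (FDR = 3.74e-14), and at 8 h against 0 h it was -0.04 ± 0.08 (FDR = 0.779). IRF2 was lower at 2 h in 8 of 8 animals. It met the FDR but not the fold criterion in each breed, with -0.79 ± 0.16 in Angus (FDR = 4.40e-05) and -0.72 ± 0.14 in Holstein (FDR = 1.33e-05).

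IRF3, the constitutive factor of the TRIF route, had the smallest change of the 6 genes at 2 h. It was 55.7 to 68.7 (Angus) and 62.0 to 69.8 CPM (Holstein) at 0 h, and 45.5 to 62.5 and 57.0 to 61.6 CPM at 2 h. The change at 2 h was -0.18 ± 0.07 (FDR = 0.0395, 1.13-fold lower), in the same direction in 8 of 8 animals. Its FDR rose above 0.05 without the libraries with other counting (0.259), with DESeq2 size factors (0.0517), with the count filter of 10 (0.0667) and without any single animal other than Angus animal 4 (0.064 to 0.141). At 8 h the change was -0.08 ± 0.06 (FDR = 0.429). Since IRF3 is activated by phosphorylation, its RNA level does not report its activity.

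**Figure D2:**
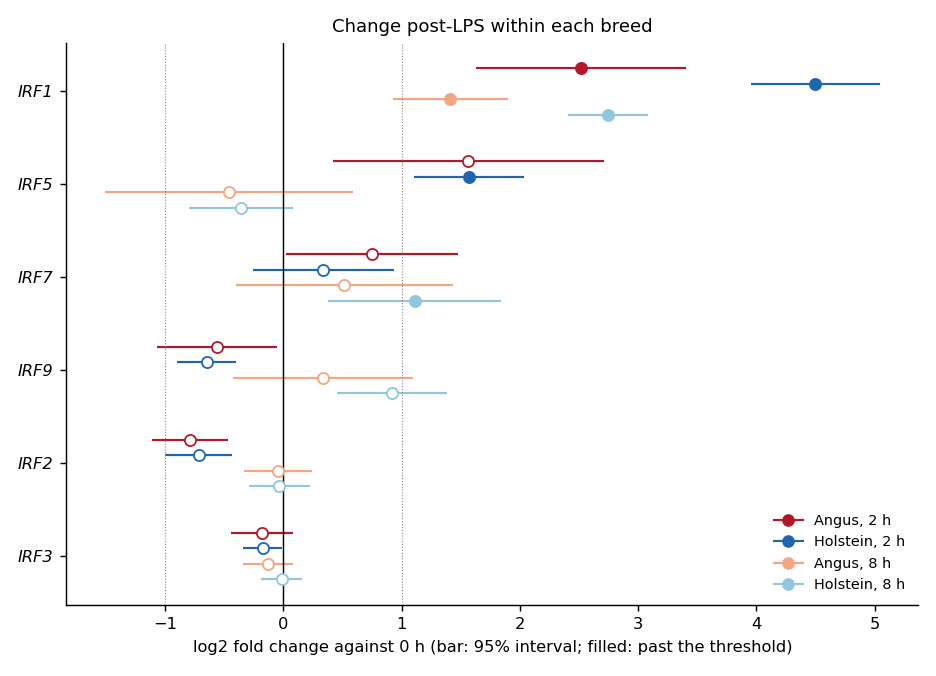
Log2 fold change against 0 h (horizontal axis) of 6 IRF genes within each breed at 2 h and 8 h post-LPS, edgeR, n = 4 animals per group. Bars are 95% intervals, filled points passed the threshold and dotted lines mark a 2-fold change; IRF1 is filled in all 4 comparisons, from 1.41 in Angus at 8 h to 4.50 in Holstein at 2 h.

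By the threshold, the breeds differed in the level of IRF5 at every hour and in that of IRF1, IRF7 and IRF9 at some hours, always with Holstein higher. By the FDR alone, IRF1 and IRF9 also differed at every hour, with IRF1 lower in Holstein at 0 h. Past the threshold were IRF5 at 0 h (1 of 6 genes, where 3.81% of 20385 rows passed), IRF5 and IRF1 at 2 h (2 of 6, where 4.44% of 20184 rows passed) and IRF5, IRF7 and IRF9 at 8 h (3 of 6, where 3.24% of 20679 rows passed). Higher in Holstein and past the threshold were 1.72%, 2.43% and 2.21% of rows at 0, 2 and 8 h, and 13.8%, 20.1% and 16.5% had an FDR under 0.05. Of these 6 calls, 1 held under the stricter quasi-likelihood F test, that of IRF5 at 8 h. The median log2 difference of the 6 genes, Holstein over Angus, was 0.43, 0.54 and 1.00 at 0, 2 and 8 h, against -0.0022, -0.0086 and 0.0057 over all rows.

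IRF5 was higher in Holstein by 1.28 ± 0.44 on the log2 scale at 0 h (FDR = 0.0365), 1.28 ± 0.44 at 2 h (FDR = 0.0268) and 1.37 ± 0.36 at 8 h (FDR = 0.00311). The ranges of the breeds overlapped at 0 h and 2 h, each time through Angus animal 3, and were separate at 8 h (0.591 to 1.90 CPM in Angus, 2.35 to 3.02 CPM in Holstein), as were those of 20.4% of all rows, with Holstein higher in 11.2%. The 8 h call held without any single animal and under the F test (FDR = 0.0386). The 0 h call was lost without any of Angus animals 1, 2 and 4 or Holstein animals 1, 2 and 4 (FDR = 0.0548 to 0.133), under the F test (FDR = 0.0919) and without the libraries with other counting (FDR = 0.306). The 2 h call was lost without any of the same 6 animals, through the FDR (0.053 to 0.106) or, without Angus animal 4, through a log2 difference of 0.99, and under the F test (FDR = 0.0736). Without Angus animal 3 the difference grew to 1.78 at 0 h and 1.84 at 2 h.

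IRF9 was higher in Holstein at every hour, by 0.73 ± 0.22 at 0 h (FDR = 0.013), 0.64 ± 0.18 at 2 h (FDR = 0.00364) and 1.31 ± 0.39 at 8 h (FDR = 0.0119), of which the last exceeded 2-fold. The breeds did not overlap at 0 h and 2 h, as was so for 17.3% and 24% of all rows, with Holstein higher in 9.35% and 12.9%. At 8 h they overlapped, with Angus animal 3 at 15.8 CPM above Holstein animal 2 at 11.0 CPM. The 8 h call was lost without any of Angus animals 1, 2 and 4 or Holstein animal 4 (FDR = 0.0557 to 0.0699) and under the F test (FDR = 0.059). Without the libraries with other counting, which left 3 Angus and 2 Holstein animals at 0 h, the 0 h FDR was 0.418.

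IRF7 differed by 0.86 ± 0.40 at 0 h (FDR = 0.145), 0.44 ± 0.26 at 2 h (FDR = 0.24) and 1.45 ± 0.44 at 8 h (FDR = 0.0134). At 8 h Angus animal 3 (8.19 CPM) lay within the Holstein range and Holstein animal 2 (5.02 CPM) lay below it. The 8 h call was lost without any of Angus animals 1, 2 and 4 or Holstein animals 1 and 4 (FDR = 0.0594 to 0.0745) and under the F test (FDR = 0.0615). Without Angus animal 3, IRF7 also passed at 0 h, at 1.23 (FDR = 0.00722).

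IRF1 differed between the breeds in opposite directions before and after LPS. At 0 h Holstein was lower, by 0.64 ± 0.19 on the log2 scale (FDR = 0.00958, 1.56-fold), and all 4 Holstein cultures lay below all 4 Angus cultures, as in 7.99% of all rows. At 2 h Holstein was higher by 1.34 ± 0.50 (FDR = 0.041, 2.54-fold), with overlap through Angus animal 3, and at 8 h by 0.69 ± 0.24 (FDR = 0.0326, 1.61-fold). The 2 h call was lost without any of Angus animals 1, 2 and 4 or Holstein animals 2 and 4 (FDR = 0.095 to 0.152), under the F test (FDR = 0.0955) and with DESeq2 (FDR = 0.0844). Without Angus animal 3, and equally without the libraries with other counting, it was 1.96 (FDR = 5.67e-05). The 0 h difference kept an FDR of 0.0378 under the F test and had one of 0.349 without the libraries with other counting. Its FDR also rose above 0.05 without Angus animal 1 (0.0558), Holstein animal 1 (0.0537) or Holstein animal 4 (0.0528). The overlapping LOC100848038 row differed by 1.30 ± 0.50 at 2 h (FDR = 0.0506) and did not pass.

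IRF2 and IRF3 did not pass at any hour. IRF2 differed by 0.01 to 0.09 on the log2 scale (FDR = 0.763 to 0.963), with 95% intervals that reached from -0.27 to 0.41 over the 3 hours. IRF3 was 0.24 ± 0.09 higher in Holstein at 8 h (FDR = 0.0554), when the breeds did not overlap (54.5 to 57.8 CPM in Angus, 61.0 to 70.7 CPM in Holstein). The same held for 20.4% of all rows at 8 h, with Holstein higher in 11.2%.

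**Figure D3:**
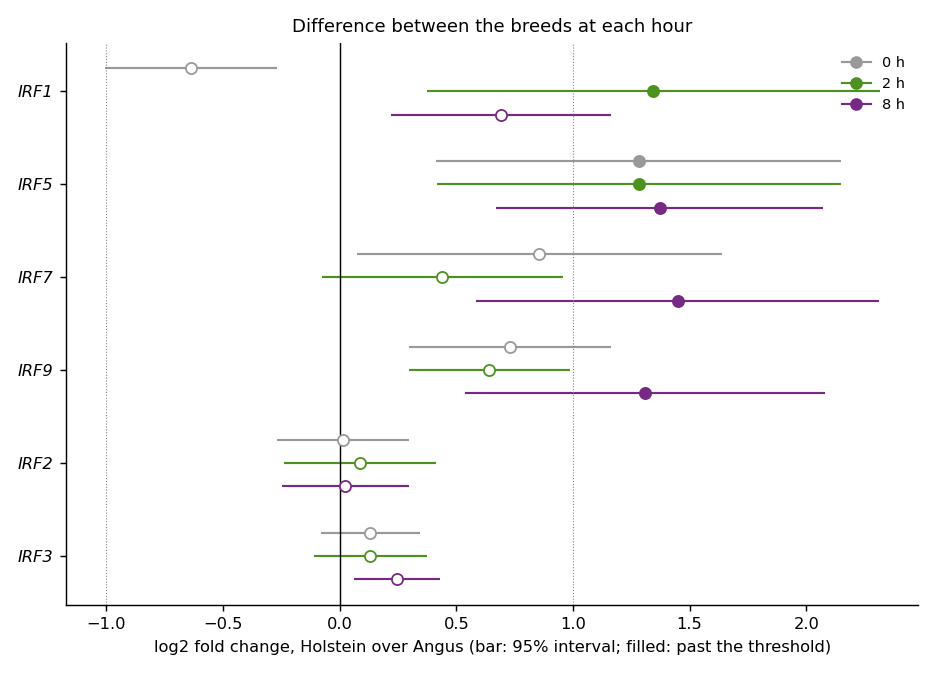
Log2 fold change of Holstein over Angus (horizontal axis) for 6 IRF genes by hour of LPS exposure (0, 2, 8), edgeR, 4 animals per breed. Bars are 95% intervals and filled points passed the threshold; IRF5 is filled at all 3 hours (1.28, 1.28 and 1.37), and IRF1 lies below 0 at 0 h and above it at 2 h and 8 h.

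A term for breed by hour asked whether the LPS response itself differed between the breeds. IRF1 was the only member past the threshold, at 8 h (1 of 6 genes, where 0.0982% of 20368 rows passed, 0.0835% upward, and 0.137% had an FDR under 0.05), with a response 1.32 ± 0.30 larger in Holstein on the log2 scale (FDR = 0.0163). At 2 h the IRF1 response was 2.00 ± 0.57 larger in Holstein (FDR = 0.0912), so 0 of 6 genes passed where 0.278% of 20157 rows did, 0.193% upward, and 0.437% had an FDR under 0.05. By unadjusted p IRF1 alone was under 0.05, and DESeq2 called 0 as well. On the log2 scale of CPM + 0.5, the animals' changes at 2 h were 1.97, 2.11, 3.51 and 0.96 in Angus and 3.74, 4.78, 3.54 and 4.74 in Holstein. At 8 h they were 1.43, 1.43, 1.56 and 0.75 in Angus and 2.40, 2.92, 2.24 and 2.61 in Holstein. Every Holstein animal thus changed more than every Angus animal at both hours, as in 5.48% and 4.38% of all rows. At 2 h the gap was small, 3.535 in Holstein animal 3 against 3.513 in Angus animal 3. In the LOC100848038 row the breeds overlapped at 2 h (3.686 against 3.711 in the same animals) and were separate at 8 h.

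The animals give each response its own 0 h sample, and with the animal as a block the IRF1 interaction was 2.18 at 2 h (FDR = 8.77e-04) and 1.34 at 8 h (FDR = 5.74e-07). With the block under the F test, an alternative chosen after seeing the data, the FDR was 0.0588 at 2 h and 0.0335 at 8 h, and under the F test without the block it was 0.373 and 0.342. The 8 h call was lost without Angus animal 2 (FDR = 0.0654), Holstein animal 2 (FDR = 0.139) or Holstein animal 4 (FDR = 0.172), and without the libraries with other counting (1.31, FDR = 0.418). The 2 h interaction passed without Angus animal 3 (2.63, FDR = 3.60e-05) and without the libraries with other counting (2.57, FDR = 0.00717). For the other 5 genes the interaction lay between -0.40 and 0.59 on the log2 scale (FDR = 0.9999 at 2 h and 1.0 at 8 h).

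At 8 h the animals of a breed did not rank alike for the members. Holstein animal 2 had the largest IRF1 change of the 8 animals (2.92) and the smallest among Holstein for IRF7 (0.59, the others 1.02 to 1.29) and IRF9 (0.06, the others 1.00 to 1.12). Among Angus, animal 4 had the smallest change for IRF1 (0.75), IRF7 (-0.05) and IRF9 (-0.20). Over the 15 interferon-stimulated genes tested, 1 of which (IFIH1) entered only through the 8 h samples, the median change of Holstein animal 2 was 0.47 against 1.13, 1.78 and 1.63 in Holstein animals 1, 3 and 4, and in Angus it was 0.34, 0.30, 0.56 and 0.16. The 0 h libraries of Holstein animals 2 and 4 were among those with other counting.

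**Figure D4:**
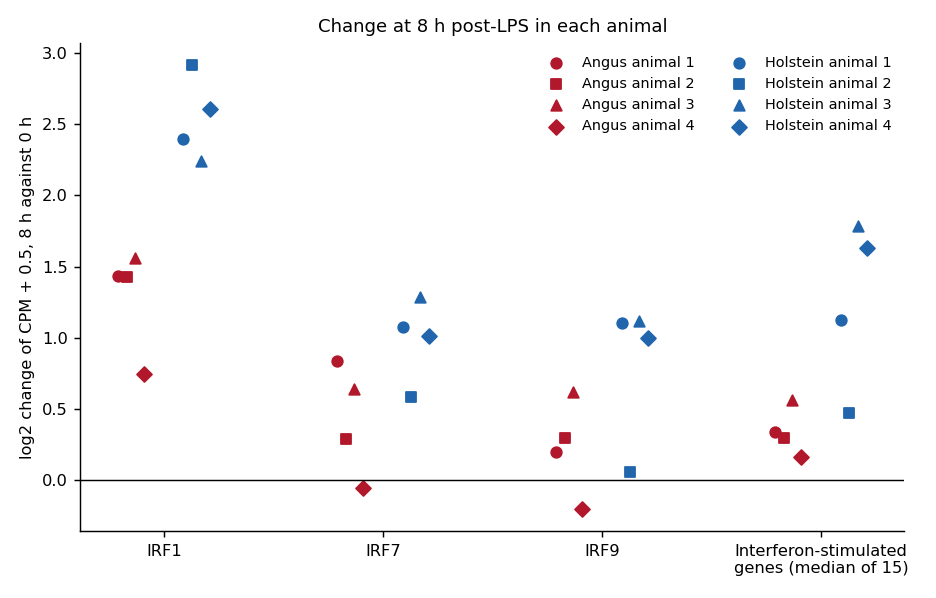
Log2 change of CPM + 0.5 from 0 h to 8 h post-LPS (vertical axis) in each of the 8 animals for IRF1, IRF7 and IRF9 and for the median of 15 interferon-stimulated genes. Each point is 1 animal; Holstein animal 2 is the highest for IRF1 (2.92) and the lowest Holstein animal for the other 3 measures.

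Reads also fell in the gene-free rows beside members, which the tables list by position. The row just past the 3′ end of IRF5 (chromosome 4 from 93717882 to 93722320) held 76.7% as many counts as IRF5 itself, yet it changed by 0.27 ± 0.12 at 2 h (FDR = 0.0808) where IRF5 changed by 1.57, and it differed by -0.25 ± 0.21 between the breeds at 0 h (FDR = 0.475). The row past the 3′ end of IRF2 (chromosome 27 from 13826927 to 13909932) held 41.8% as many counts and moved as IRF2 did, by -0.71 ± 0.14 at 2 h (FDR = 4.95e-06). Although IRF4 itself had 1 count in all, the row past its 3′ end (chromosome 23 from 52015704 to 52050984) held 8259 counts, at 3.37 to 5.85 CPM over all samples, and changed by 0.14 ± 0.10 at 2 h (FDR = 0.31) and by -0.23 ± 0.09 at 8 h (FDR = 0.0498). The row before the 5′ end of IRF8 (chromosome 18 from 11807343 to 11883375) held 2531 counts against 25 for IRF8. With both breeds it changed by 0.75 ± 0.19 at 2 h (FDR = 5.16e-04) and by 0.66 ± 0.21 at 8 h (FDR = 0.0116). At 8 h it was lower in Holstein by 1.05 ± 0.31 (FDR = 0.00825), past the threshold, at 0.820 to 1.29 CPM against 1.25 to 3.15 CPM in Angus. These rows were named after their values were seen, and which transcripts their reads come from was not tested.

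Genes with the most similar pattern were ranked by Pearson's r of log2(CPM + 0.5) over the 24 samples, which share animals and hours, as a description with no test. For IRF1 they were NFKBIA (r = 0.969), NFKBIZ (0.964), ZC3H12A (0.959), IER3 (0.958) and TNFAIP3 (0.955), of which NFKBIA, NFKBIZ and TNFAIP3 code for regulators of NF-kB. For IRF9 they were UBA7 (0.951), PARP12 (0.94), PARP10 (0.934), DDX58 (0.925) and TRANK1 (0.915). For IRF5 they were WSB2 (0.947), SQSTM1 (0.934), SERINC4 (0.928), FMNL3 (0.927) and C15H11orf96 (0.926), and for IRF7 QARS (0.868), LOC100847377 (0.858), IFITM3 (0.855), WDTC1 and PSMD8 (both 0.849). Among the members, IRF7 and IRF9 had r = 0.707, IRF1 and IRF5 0.622, IRF1 and IRF2 -0.697, and IRF1 and IRF9 -0.09.

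Of 13 genes of the TLR4 route upstream of the IRF genes, 12 were tested. With both breeds 1 passed at 2 h, where 2.93% of all rows did, and 4 had an FDR under 0.05, where 29.3% of all rows did. At 8 h 0 passed, also under the F test, and 3 had an FDR under 0.05, where 1.57% and 21.4% of all rows did. The one past the threshold at 2 h was TICAM1, which codes for the adaptor TRIF and rose by 1.25 ± 0.13 (FDR = 4.45e-20), from a mean of 7.41 to 15.7 CPM in Angus and from 8.19 to 22.2 CPM in Holstein, without overlap between the hours. TRAF3, a TRIF signalling partner, changed at 2 h by 0.90 ± 0.10 with both breeds (FDR = 2.54e-17, 1.87-fold). It changed by 1.03 ± 0.15 in Angus (FDR = 1.46e-09), past the threshold, and by 0.78 ± 0.15 in Holstein (FDR = 3.17e-06), and the interaction was -0.24 ± 0.20 (FDR = 0.9999). The others with an FDR under 0.05 were TRAF6 (0.26 ± 0.07) and IRAK4 (-0.17 ± 0.07). TLR4, the LPS receptor, was higher in Holstein by 1.59 ± 0.50 at 0 h (FDR = 0.0209), 2.01 ± 0.41 at 2 h (FDR = 9.66e-05) and 1.34 ± 0.36 at 8 h (FDR = 0.00457), and was the only gene of the list past the threshold between the breeds. Its 0 h call was lost under the F test, which called 0 genes of the list there.

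The interferon genes with a row (IFNB1, IFNB3, IFNK and IFNG) were barely detected or had no counts, and those without a row could not be assessed. Of 15 interferon and receptor symbols 9 had a row and 5, all of them receptor genes, were tested. IFNB1, which codes for interferon beta, stayed at 0.0613 to 0.627 CPM over all samples and below the filter. IFNAR2, a subunit of the type I interferon receptor, was the one to pass, with 1.18 ± 0.21 at 2 h (FDR = 2.44e-07) and 1.09 ± 0.18 at 8 h (FDR = 3.98e-08). Of all rows, 2.93% and 1.57% passed at these hours. Of 10 IRF cofactors 6 were tested at 8 h, and 0 passed against 0 h with both breeds or in Angus. TRIM21, a ubiquitin ligase that acts on IRF proteins, alone passed in Holstein (1.21 ± 0.16, FDR = 3.19e-11), where 2.51% of all rows did. It alone passed between the breeds at 8 h (1.01 ± 0.18, FDR = 1.97e-06), where 3.24% of all rows did. From 2 h to 8 h TRIM21 and PRDM1, a repressor, rose past the threshold (1.32 ± 0.17 and 1.34 ± 0.23), where 2.89% of all rows passed.

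Downstream, of 26 interferon-stimulated genes 22 had a row. With both breeds, 2 of 12 tested rose past the threshold at 2 h (BST2 and CMPK2), where 2.12% of all rows did. At 2 h 5 others were lower with an FDR under 0.05 and less than 2-fold: IFIT3 (-0.77 ± 0.25), IFIT5 (-0.76 ± 0.07), IFIT1 (-0.68 ± 0.10), DDX58 (-0.41 ± 0.09) and EIF2AK2 (-0.21 ± 0.07), and in Angus IFIT3 fell past the threshold (-1.09 ± 0.40, FDR = 0.0488). Of all rows, 15.3% were lower at 2 h with an FDR under 0.05. The median change of the 12 at 2 h was negative in each of the 8 animals (-0.34 to -0.14). At 8 h 7 of 15 rose past the threshold, where 1.16% of all rows did. The 15 had a median log2 change of 0.92 against -0.0064 over all rows. Of these 15, IFIH1 was below 1 CPM in every 0 h sample and entered the test only through 8 h, and of the other 14 genes 6 passed. In Holstein at 8 h 19 were tested, of which 5 (IFIH1, ISG15, MX2, OAS2, RSAD2) entered only through 8 h, and they are left out of the count here. Of the other 14 genes 10 passed, where 2.51% of all rows did in Holstein. In Angus 13 were tested, IFIH1 again only through 8 h. Of the other 12 genes 1 passed (2 of all 13), where 0.863% of all rows did in Angus. With the animal as a block 4 of 13 passed, but that share of all rows is for the fit without the block. These denominators differ, and the counts were not compared between the breeds. IFIH1, a sensor of viral RNA, went from 0.457 ± 0.298 CPM at 0 h to 4.77 ± 2.95 CPM at 8 h in Angus and from 0.469 ± 0.113 to 17.4 ± 4.52 CPM in Holstein (SD, n = 4). BST2, an antiviral membrane protein, went from 2.10 ± 0.46 to 16.9 ± 10.3 CPM and from 1.60 ± 0.59 to 61.8 ± 36.8 CPM. ISG15, a ubiquitin-like modifier, was at 0.0193 to 0.0661 CPM at 0 h, about the floor of 3 counts, and at 8 h reached 0.830 to 14.2 (Angus) and 3.48 to 25.7 CPM (Holstein).

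At 8 h 20 interferon-stimulated genes were tested between the breeds. MX2 and IFI44 were below 1 CPM in every Angus sample and entered only through Holstein, where MX2 was at 5.41 ± 1.70 CPM against 0.384 ± 0.272 CPM in Angus (SD, n = 4). Of the other 18 genes 8 were higher in Holstein past the threshold, among them RSAD2 (2.25 ± 0.51), DHX58 (1.96 ± 0.52) and IFIH1 (1.87 ± 0.40). Of all rows, 2.21% were higher in Holstein past the threshold. At 0 h 0 of 11 passed in either direction, also under the F test, where 3.81% of all rows passed. An FDR under 0.05 was met by 13.8% of all rows and by 1 of the 11. This was IFIT1, which was lower in Holstein (-0.38 ± 0.11, FDR = 0.00766). The interaction at 8 h passed for 1 of 15, IFIT1 (1.21 ± 0.25, FDR = 0.00276), and for 7 of 15 with the animal as a block. Of all rows, 0.0982% passed without the block. More rows passed with the block, so the 7 of 15 cannot be set against that share. Under the F test 0 of 15 passed, but so did 0 of all rows, which makes this count uninformative about these genes. IFIT1 went from a mean of 82.5 to 77.6 CPM in Angus and from 63.3 to 138.1 CPM in Holstein between 0 h and 8 h. Among 9 antigen-processing genes known to carry IRF1 sites, 0 of 7 tested passed at 2 h with both breeds, also under the F test. An FDR under 0.05 was met by 1 (PSMB10). Of all rows, 2.93% passed and 29.3% had an FDR under 0.05 there. At 8 h 8 were tested and 3 passed: the immunoproteasome subunits PSMB9 (2.50 ± 0.29) and PSMB8 (1.39 ± 0.19) and the peptide transporter TAP1 (1.62 ± 0.27). Of all rows, 1.57% passed at 8 h. PSMB9 was below 1 CPM in every 0 h sample and entered only through 8 h. Between the breeds 1 of 7 tested passed at 0 h, 1 of 7 at 2 h and 0 of 8 at 8 h, where 3.81%, 4.44% and 3.24% of all rows did. TAP1 was lower in Holstein at 0 h by 1.13 ± 0.37 on the log2 scale (FDR = 0.0234), and PSMB8 at 2 h by 1.15 ± 0.25 (FDR = 2.38e-04). The 8 h response of PSMB9 was larger in Holstein by 1.71 ± 0.43 (FDR = 0.0425), 1 of 8 genes where 0.0982% of all rows passed. The calls of TAP1 and PSMB9 were lost under the F test, which called 0 genes of the list in either comparison. In the 8 h interaction that test called 0 of all rows, so the loss of the PSMB9 call is not particular to PSMB9.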

How the data were processed

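RNA-Seq of polyA RNA (a kit that does not mark strand) was measured in 24 samples. Per the study's methods and the submitters' processing notes, reads passed CASAVA 1.7 and were aligned and counted with NextGENe 2.3.4 on UMD v3.1. The authors deposited raw read counts per row, together with coverage signal (covered bases and highest coverage), which was used only to check IRF1 and to find libraries with other counting. Rows without a gene symbol held 12.28 to 20.53% of counts and were kept and tested. The members and gene lists were chosen with earlier results of these data known. Named were the 8 members, list genes past the threshold, and for likeness the 5 rows with the highest r. Counts were scaled by TMM in edgeR 4.0.16 (R 4.3.3), rows at 1 CPM or more in 50% of the samples compared were kept, and the likelihood-ratio test, as in the study's methods, was applied, with breed as covariate for both breeds. Alternatives were the quasi-likelihood F test, DESeq2 1.42.0, its size factors, a count filter of 10, the FDR alone, leaving out animals or the 4 libraries with other counting, and the animal as a block. Scripts were tested on simulated data. The replicate numbers name the same animal: same-animal samples deviated together (24 pairs, r = 0.43 to 0.742), above different animals of a breed (72 pairs, r = -0.581 to 0.263). Deviations were taken from each group's mean, which by itself makes r for different animals negative on average. Replicates are separate animals, 1 culture each. A further gene list is not reported here.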

Additional observations from a re-analysis of the deposited data

Results flagged for a closer look

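In groups of 4 animals, 1 sample lay far from the other 3 in 5 cases. Chance alone gives about 1 such case in 20 groups of independent values. The same animals recur across genes and hours, so the 5 cases were not judged against chance. IRF7 in Angus at 8 h was 8.192 CPM in animal 3 and 2.969 to 3.015 CPM in the others. IRF9 in Angus at 0 h was 10.11 CPM in animal 3 and 5.322 to 5.834 CPM in the others. IRF9 in Holstein at 8 h was 11.04 CPM in animal 2 and 23.51 to 25.76 CPM in the others. IRF2 in Angus was 3.505 CPM in animal 3 at 2 h (others 4.337 to 4.398 CPM), in a library with other counting, and 7.958 CPM in animal 1 at 8 h (others 6.539 to 6.754 CPM). The 8 h response of IRF1 differed between the breeds by an interaction of 1.323 on the log2 scale, larger in Holstein.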

How the results depend on the processing

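Of the gene values recomputed, 1002 kept their direction and side of the threshold, 43 became weaker, 23 stronger and 24 reversed; the cause was not tested unless fewer samples or genes made it. With the FDR alone, members called at 2 h were 5 with both breeds, 4 for Holstein and 2 for Angus, and between breeds at 0 h 3. The rows called were then 5912, 4353 and 6608 (2 h, 8 h, 8 h against 2 h, both breeds), 3505 and 3017 (Holstein), 2799 and 804 (Angus), 2816, 4050 and 3411 (breeds at 0, 2 and 8 h) and 88 (interaction at 2 h), against 591, 320, 586, 638, 514, 604, 178, 776, 897, 670 and 56. With symbol rows only, chosen after seeing the data, rows were 389, 387, 408 and 28 (2 h, 8 h against 2 h, Holstein 2 h, interaction 2 h). The F test called 1 member in Holstein at 8 h, 0, 0 and 1 between breeds, 0 in the 8 h interaction (1 by DESeq2; in the likelihood-ratio test IRF1 alone had an unadjusted p under 0.05), and 90, 16 and 0 rows (Angus 8 h, interactions). Without the 4 libraries with other counting, 1 member remained called in Holstein at 8 h, 0 between breeds at 0 h (259 rows), 1 in the 2 h and 0 in the 8 h interaction (6 rows). DESeq2 called 2 members in Angus at 2 h and 1 between breeds at 2 h. A replicate block (the paired fit) called 2 members in Angus at 2 h (2 also under the F test) and 1 member in the 2 h interaction (126 rows), with 100 rows in the 8 h interaction against 20; no other member call changed. Leaving out 1 animal gave 1 to 3 members for Holstein 8 h and for Angus 2 h, 0 to 2, 0 to 2 and 1 to 3 between breeds, and 0 to 1 in each interaction; rows ranged from 515 to 1117 and 446 to 1127 (breeds, 0 and 8 h), 33 to 80 and 2 to 62 (interactions). Values that reversed were, for the interaction at 2 h, IRF2 -0.002039 and IRF9 0.01015 without the 4 libraries, IRF3 -0.01038 and IRF5 -0.009064 with the count filter, IRF3 -0.16 without the 4 libraries. At 8 h IRF2 was -0.005195 with the count filter. Without 1 animal, IRF3 in Holstein at 8 h was -0.04954 to 0.01702; IRF2 between breeds -0.04659 to 0.06901 at 0 h and -0.01676 to 0.08549 at 8 h; and interactions at 2 h were -0.006701 to 0.1271 (IRF2), -0.06288 to 0.03951 (IRF3), -0.1246 to 0.2206 (IRF5) and -0.3145 to 0.08435 (IRF9), at 8 h -0.05271 to 0.02944 (IRF2) and -0.02462 to 0.2304 (IRF5). Depth limited IRF4 and IRF8, which no setting could test.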
